A study of Mus musculus with 16 samples.

Results

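The mitochondrial genome transcripts comprised the 37 genes whose symbols start with mt- among the 55487 genes of the count matrix, chosen by their symbols alone. They fell into 13 protein-coding genes, 2 ribosomal RNA (rRNA) genes and 22 transfer RNA (tRNA) genes. All 37 matched the GENCODE M21 annotation of GRCm38 (the mm10 genome) by identifier, and each lies on chromosome M. Bulk brain RNA came from 16 female mice on a C57BL/6J background, with 4 mice per genotype and treatment. CETPtg mice carried a human CETP transgene, which gives mice the cholesteryl ester transfer protein they otherwise lack. APPtg/CETPtg mice carried in addition a human APP751 transgene with the Swedish and Indiana mutations, which the Thy1 promoter drives in neurons. Both strains were bred as heterozygotes, and by their genotype labels all mice used here carried the CETP transgene. From 11 weeks of age all were fed a diet with 1% cholesterol. Evacetrapib, an inhibitor of CETP, was injected daily into the peritoneum at 30 mg/kg for 11 weeks, and the other mice received its vehicle. Values given mouse by mouse follow the order S1 to S4 (CETPtg, vehicle), A to D (CETPtg, evacetrapib), S5 to S8 (APPtg/CETPtg, vehicle) and E to H (APPtg/CETPtg, evacetrapib), as the labels name the mice. P-values measure the spread between these mice.

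The mitochondrial genome is a small circle present in many copies per cell. Its protein-coding genes encode core subunits of the respiratory chain, namely of complex I (the Nd genes), complex III (mt-Cytb) and complex IV (the Co genes), and of the ATP synthase, complex V (the Atp genes). Both strands are transcribed as long precursors. The tRNAs, which lie between most of the other genes, are cut out to release the mRNAs and rRNAs. Most mitochondrial mRNAs receive a poly(A) tail, the rRNAs a short one, and the tRNAs the terminal CCA that amino acids are attached to. In brain, the respiratory chain supplies most of the ATP that neurons spend on ion pumping and synaptic transmission.

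Poly(A) RNA had been selected from the total RNA and sequenced in directional libraries, with 28626139 to 46800787 reads counted on genes per mouse in CETPtg mice and 21391335 to 55453789 in APPtg/CETPtg mice. The deepest library was that of the vehicle-treated APPtg/CETPtg mouse S8. Every other APPtg/CETPtg library had at most 27398792 reads and so was shallower than every CETPtg library. Apart from S8, depth therefore cannot be told apart from genotype, and its part in the genotype differences was not tested. The 2 genotypes shared 0 columns of the index plate and the 2 treatments 0 rows, so that plate column and genotype, and plate row and treatment, cannot be told apart. The mouse gene Thy1 lay between 684 and 807 CPM in CETPtg and between 865 and 2063 CPM in APPtg/CETPtg mice, and so followed the genotype labels. Markers of neurons summed to at least 8950.0 CPM in every mouse, while choroid plexus markers ranged from 15.4 to 474 CPM and pituitary markers from 1.04 to 853 CPM.

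Part of the mitochondrial genome has a near-identical copy in the nuclear genome. When the 37 transcripts were compared with all other annotated transcripts by BLAST, 7 pseudogenes matched at 99% identity or more, and they lay one after another on chromosome 1, chr1:24611535-24616197, minus strand (GRCm38). Together they spanned bases 6390 to 11042 of the mitochondrial genome, 4653 bases, and over 4140 aligned bases they held 2 mismatches. From the end of mt-Co1 to the first 876 bases of mt-Nd4, the order was Gm29216 (copy of part of mt-Co1), Gm28661 (mt-Co2), Gm10925 (mt-Atp6), Gm28437 (mt-Co3), Gm28438 (mt-Nd3), Gm10222 (mt-Nd4l) and Gm28439 (part of mt-Nd4). Wholly inside this stretch lay 11 of the 37 genes, 6 protein-coding (mt-Co2, mt-Atp8, mt-Atp6, mt-Co3, mt-Nd3 and mt-Nd4l) and 5 tRNA (mt-Ts1, mt-Td, mt-Tk, mt-Tg and mt-Tr). Of mt-Atp8, the last 43 bases, which it shares with mt-Atp6, match Gm10925, and for the rest no near-identical transcript is annotated. It lies between mt-Co2 and mt-Atp6, whose copies flank the corresponding place on chromosome 1. For the 5 tRNA genes no near-identical transcript is annotated either, and their place in the copy rests on the flanking pseudogenes. A read from a stretch without a mismatch cannot be assigned to 1 of the 2 places by its sequence, and how the counting treated such reads is not given in the sources used here.

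The 2 mismatches were A1066T of mt-Co1 and T3C of mt-Nd3, each with the mitochondrial base first and positions counted from 1 at the start of the gene. The start of mt-Nd3 (chrM:9459-9806, plus strand) and of its copy Gm28438 is shown because it holds the second of these, at mitochondrial base 9461, in capitals (all sequences are from the GENCODE M21 transcripts of GRCm38, 5′ to 3′ in the direction of the gene).
mt-Nd3, bases 1 to 33: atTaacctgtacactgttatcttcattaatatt
Gm28438, bases 1 to 33: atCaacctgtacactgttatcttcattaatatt

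The edges of the copied stretch are shown in the genes that cross them (mt-Co1, chrM:5328-6872, and mt-Nd4, chrM:10167-11544, plus strand), since mt-Co1 and mt-Nd4 also hold bases that no near-identical transcript shares. Capitals mark the bases inside the copy. In mt-Co1, 1062 of 1545 bases lay outside it, and in mt-Nd4 502 of 1378.
mt-Co1, bases 1033 to 1092: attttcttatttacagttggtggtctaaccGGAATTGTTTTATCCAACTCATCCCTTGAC
mt-Nd4, bases 846 to 905: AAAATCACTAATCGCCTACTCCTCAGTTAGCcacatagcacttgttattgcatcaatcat

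Neighbouring mitochondrial genes also overlap each other, and the 2 genes with the largest differences between genotypes, mt-Nd4l and mt-Atp8, are both of this kind. The last 7 bases of mt-Nd4l are the first of mt-Nd4, and the last 43 bases of mt-Atp8 are the first of mt-Atp6. Both plus-strand genes are shown whole, mt-Nd4l at chrM:9877-10173 and mt-Atp8 at chrM:7766-7969, with the shared bases in capitals.
mt-Nd4l, 297 bases: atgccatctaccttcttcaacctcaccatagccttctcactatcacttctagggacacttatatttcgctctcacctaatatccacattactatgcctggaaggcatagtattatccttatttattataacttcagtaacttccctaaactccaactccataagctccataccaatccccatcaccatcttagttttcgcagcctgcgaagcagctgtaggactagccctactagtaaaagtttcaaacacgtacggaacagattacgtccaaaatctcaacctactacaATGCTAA
mt-Atp8, 204 bases: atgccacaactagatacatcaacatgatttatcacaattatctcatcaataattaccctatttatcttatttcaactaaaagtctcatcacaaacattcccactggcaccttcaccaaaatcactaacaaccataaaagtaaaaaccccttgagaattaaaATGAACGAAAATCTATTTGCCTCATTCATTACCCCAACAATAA

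Levels were compared between genes per length, as CPM (counts scaled to a common library size, with TMM factors) divided by gene length in kb. The 13 protein-coding genes ranged from mt-Co1, the catalytic subunit of complex IV, with 7468 ± 944 CPM per kb (SD over the 16 mice) to mt-Nd3, a small complex I subunit, with 7.66 ± 1.33 CPM per kb. Mt-Co1 was followed by mt-Cytb (5318 CPM per kb), mt-Nd1 (3627), mt-Nd2 (2245), mt-Nd5 (1852) and mt-Nd4 (1812), and then by the large rRNA mt-Rnr2 (1675) and the small rRNA mt-Rnr1 (1566). In all 16 mice the order mt-Co1, mt-Cytb, mt-Nd1, mt-Nd2, mt-Nd5 held for the first 4 steps, although the ranges over mice of each pair of neighbours overlapped. The next neighbours did not hold their order, since mt-Nd5 was above mt-Nd4 in 11 and mt-Nd4 above mt-Rnr2 in 8 of 16 mice. Below mt-Rnr1 there was a gap that no mouse crossed, from 1225 CPM per kb in the lowest mouse for mt-Rnr1 to 96.0 in the highest for mt-Nd6.

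The 7 protein-coding genes below the gap were mt-Nd6 and the 6 inside the nuclear copy. Mt-Nd6, the complex I subunit that is the 1 protein-coding gene on the other strand, had 64.8 ± 10.8 CPM per kb. Mt-Co2 had 58.9 ± 7.77 CPM per kb, mt-Co3 35.7 ± 3.93, mt-Atp6 33.2 ± 5.92, mt-Nd4l 26.4 ± 9.30 and mt-Atp8 25.8 ± 10.52. Among these, mt-Co2 was above mt-Co3, and mt-Atp8 above mt-Nd3, in every mouse and without overlap of their ranges, while mt-Co3, mt-Atp6, mt-Nd4l and mt-Atp8 overlapped. As counts, the 6 genes inside the copy had between 57 and 2198 reads per mouse, against 44006 to 651853 for the 6 other protein-coding genes of the same strand. They took 0.332 to 0.388% of the protein-coding counts. Nuclear copies had counts of the same order as these genes. They were 0.799 to 1.09 times the member's count for Gm28661 beside mt-Co2 and 0.333 to 0.780 times for Gm28438 beside mt-Nd3. For Gm10925 beside mt-Atp6 they were 1.19 to 1.83 times and for Gm28437 beside mt-Co3 1.13 to 1.45 times, above the member in every mouse. For Gm10222 beside mt-Nd4l they were 0.2005 to 0.965 times. The part of the copy in these levels was not tested. If the counts of mt-Co1 and mt-Nd4 are divided by the bases outside the copy alone, their levels become 10865 and 4973 CPM per kb.

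**Figure D1:**
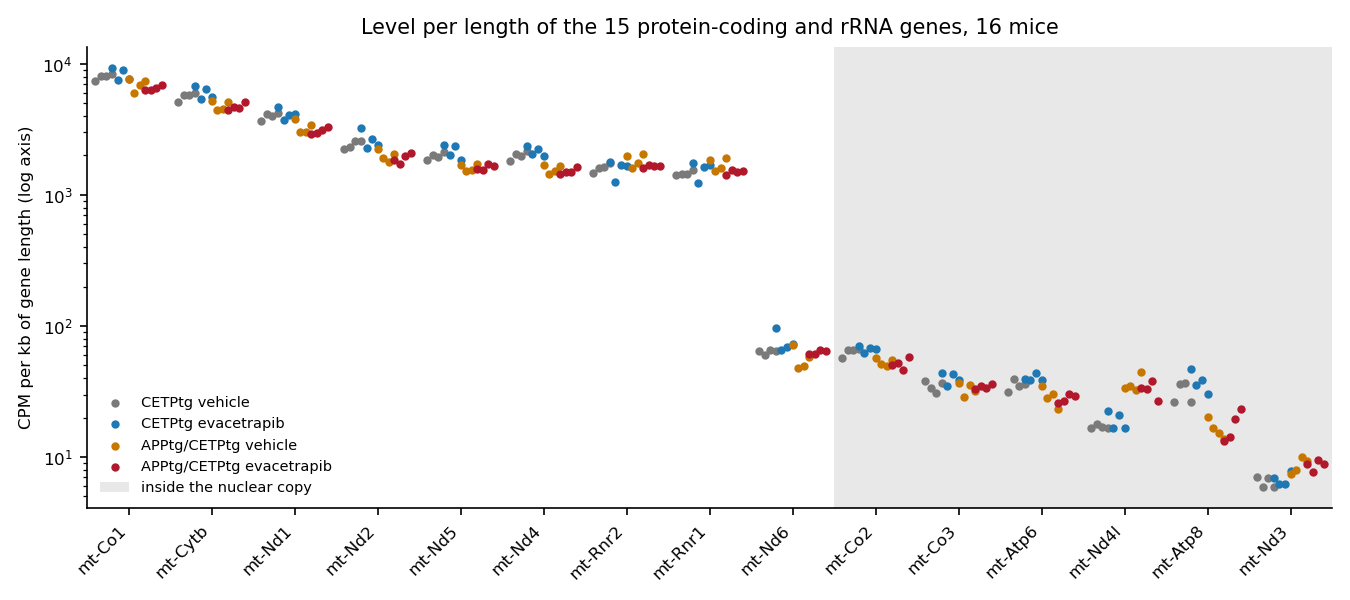
Level of the 13 protein-coding and 2 rRNA genes in CPM per kb of gene length, on a log axis, with 1 point per mouse in the colour of its group and the genes inside the nuclear copy shaded. The 6 shaded genes and mt-Nd6 lie below 96.0 CPM per kb in every mouse, and the other 8 genes above 1225.

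Values per mouse for the ends of this order are as follows. Mt-Co1 had 11429, 12466, 12446 and 12998 CPM in the vehicle-treated and 14378, 11713, 13789 and 11833 CPM in the evacetrapib-treated CETPtg mice. Double transgenic APPtg/CETPtg mice had 11814, 9319, 10750.0 and 11411 CPM with vehicle and 9789, 9726, 10100.0 and 10650.0 CPM with evacetrapib. The genotypes overlapped through the 1 vehicle-treated APPtg/CETPtg mouse at 11814 CPM, which was above 2 CETPtg mice. Mt-Nd3 had 2.46, 2.04, 2.39 and 2.04 CPM in vehicle-treated and 2.40, 2.16, 2.18 and 2.72 CPM in evacetrapib-treated CETPtg mice. Its values were 2.59, 2.79, 3.46 and 3.27 CPM in vehicle-treated and 3.06, 2.68, 3.32 and 3.06 CPM in evacetrapib-treated APPtg/CETPtg mice. Here the APPtg/CETPtg mice were the higher ones, except for 1 CETPtg mouse at 2.72 CPM.

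The tRNA genes had few counts in these poly(A) libraries. They are 59 to 75 bases long, so a read on 1 of them can also cover a neighbouring gene. How such reads were counted is not given in the sources used here. Over all mice the 22 genes had 6068 counts of 511134622, of which 5781 fell on the 6 genes that passed the filter of 10 counts in at least 4 mice, and the share per mouse lay between 0.000778 and 0.00153%. Mt-Tw (tryptophan) had 2667 counts in all, mt-Tm (methionine) 1045, mt-Tp (proline) 784, mt-Tt (threonine) 509, mt-Ti (isoleucine) 447 and mt-Tq (glutamine) 329. A further 10 genes had 91 counts or fewer, with mt-Ta at 91, mt-Te at 89, mt-Tl1 at 31, mt-Tc at 28, mt-Tv at 24, mt-Ty at 17, mt-Tl2 at 3, mt-Ts2 at 2 and mt-Tf and mt-Ts1 at 1. The other 6 genes, mt-Tn, mt-Td, mt-Tk, mt-Tg, mt-Tr and mt-Th, had 0 counts in every mouse, which allows up to 3 counts or 0.00587 CPM over all mice, counting error only. Of these 6, 4 lie in the stretch that the nuclear copy spans, where no copy of a tRNA gene is annotated. Mouse S8 held 16 of the 28 counts of mt-Tc, 225 of the 1045 of mt-Tm and 90 of the 447 of mt-Ti.

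The 3 tRNAs with the most counts and 1 with none are shown, to show how short the molecules are. Their positions are chrM:4950-5016 (mt-Tw, plus strand), chrM:3845-3913 (mt-Tm, plus), chrM:15356-15422 (mt-Tp, minus) and chrM:5089-5159 (mt-Tn, minus). Capitals mark the 2 bases of mt-Tw that also belong to mt-Nd2, so that a read on the end of that mRNA can touch the tRNA gene.
mt-Tw, 67 bases: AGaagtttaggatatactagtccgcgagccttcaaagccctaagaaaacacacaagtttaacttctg
mt-Tm, 69 bases: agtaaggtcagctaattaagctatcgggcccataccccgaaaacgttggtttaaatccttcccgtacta
mt-Tp, 67 bases: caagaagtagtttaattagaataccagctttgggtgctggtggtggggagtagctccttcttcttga
mt-Tn, 71 bases: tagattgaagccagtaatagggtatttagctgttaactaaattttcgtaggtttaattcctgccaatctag

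By class, protein-coding mitochondrial genes took a smaller share of the library in APPtg/CETPtg than in CETPtg mice, and rRNA genes did not. The protein-coding share was 3.17 ± 0.179% of all gene counts (SD, n = 4) in vehicle-treated and 3.32 ± 0.301% in evacetrapib-treated CETPtg mice. It was in APPtg/CETPtg mice 2.68 ± 0.260% with vehicle and 2.58 ± 0.118% with evacetrapib. The ranges of the genotypes, 2.91 to 3.65% and 2.37 to 2.95%, overlapped by 1 mouse of each. The rRNA share was 0.395 ± 0.0223% and 0.398 ± 0.0576% in vehicle- and evacetrapib-treated CETPtg mice and 0.457 ± 0.0537% and 0.408 ± 0.00807% in APPtg/CETPtg mice. For every 100 protein-coding counts there were 10.3 to 13.7 rRNA counts in CETPtg and 14.9 to 18.0 in APPtg/CETPtg mice, and these ranges did not overlap. No test was made of these sums. In bulk tissue, fewer cells of a type and less RNA per cell cannot be told apart.

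**Figure D2:**
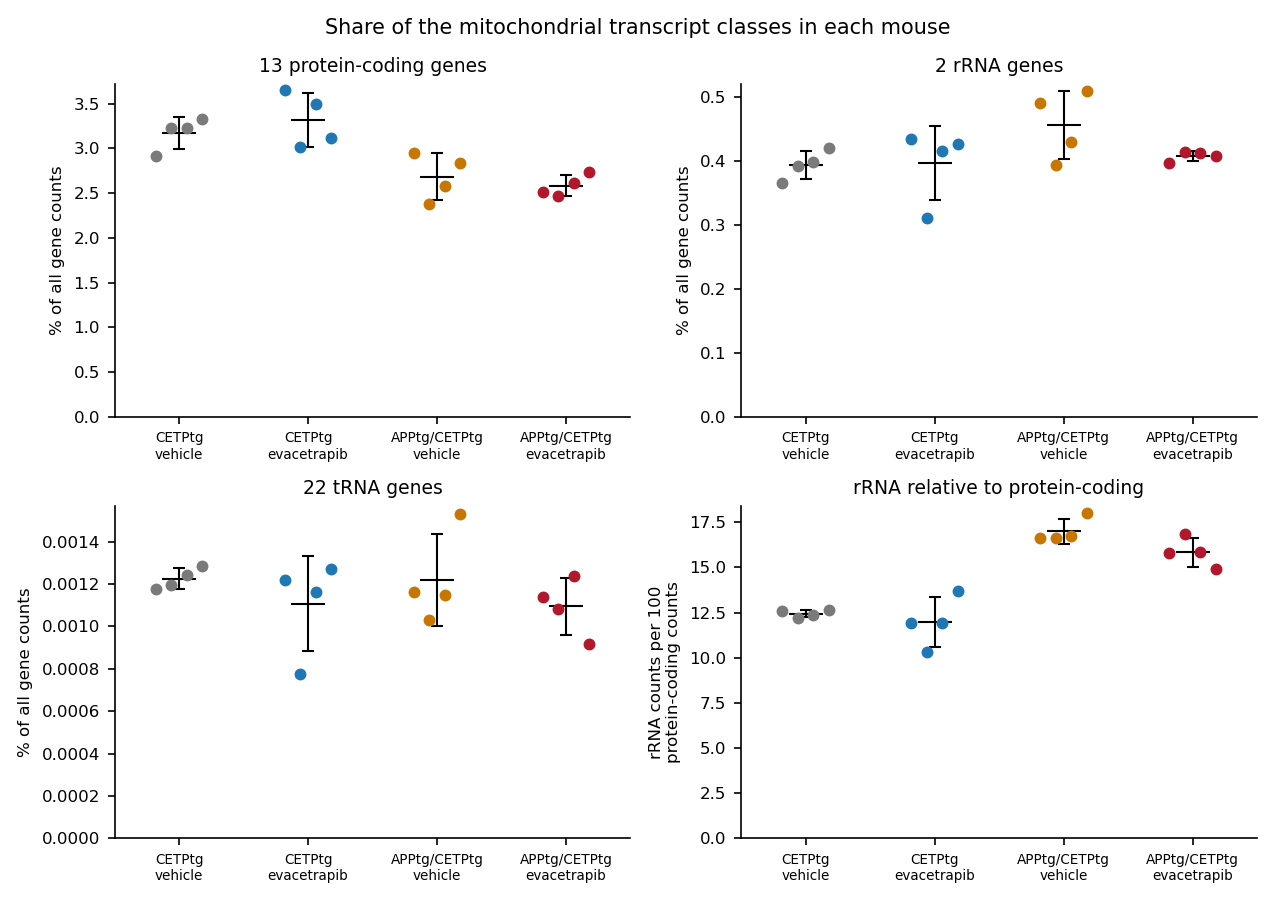
Share of the 13 protein-coding, 2 rRNA and 22 tRNA genes in all gene counts, in %, and rRNA counts per 100 protein-coding counts, with 1 point per mouse, the mean as a horizontal line and the SD as bars (n = 4 mice per group). The ratio separates the CETPtg mice, at 10.3 to 13.7, from the APPtg/CETPtg mice, at 14.9 to 18.0.

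The genotypes were compared gene by gene with edgeR's quasi-likelihood test in a model with a treatment term, over the 18609 genes that passed the filter. A gene was called at an adjusted p (Benjamini-Hochberg, over all 18609) of at most 0.05 with a change of 5% or more. Among the 21 mitochondrial genes tested, 9 fell and 3 rose in APPtg/CETPtg mice, against 17.7% of all genes called, 8.38% lower and 9.35% higher. The 9 and the 3 were all protein-coding genes except for 1 tRNA that rose, and neither rRNA was called. The median log2 fold change was -0.32 over the 13 protein-coding genes, 0.10 over the 2 rRNA genes and -0.09 over the 6 tRNA genes, beside 0.0046 over all genes tested. Of the 7 complex I genes 4 fell, 2 rose and 1 was not called. Both that rose, mt-Nd4l and mt-Nd3, lie inside the nuclear copy. Of the 3 complex IV genes 2 fell, the 1 complex III gene fell, and both complex V genes fell.

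The 6 protein-coding genes of the plus strand that extend outside the copy all fell, by 0.27 to 0.42 on the log2 scale. Mt-Co1 and mt-Cytb were above 0 when libraries were scaled to the mitochondrial mRNAs, a sum that these 6 genes largely make up. Mt-Nd4, a subunit of the proton-pumping arm of complex I, had 2507, 2826, 2722 and 2979.8 CPM in vehicle-treated and 3233, 2807, 3064 and 2746 CPM in evacetrapib-treated CETPtg mice. Its values in APPtg/CETPtg mice were 2329.5, 1983, 2085 and 2289.6 CPM with vehicle and 1983, 2046, 2079 and 2266 CPM with evacetrapib. Every APPtg/CETPtg mouse was thus below every CETPtg mouse, and the log2 fold change was -0.42 (SE 0.050, adjusted p = 2.54e-05, edgeR). Mt-Nd5 and mt-Nd2, further subunits of that arm, also fell without overlap of the genotypes, with log2 fold changes of -0.35 (SE 0.053, adjusted p = 0.000213, edgeR) and -0.37 (SE 0.068, adjusted p = 0.000974, edgeR). The genotypes overlapped for mt-Nd1 (-0.36, SE 0.056, adjusted p = 0.000317, edgeR), mt-Cytb, the cytochrome b of complex III (-0.30, SE 0.055, adjusted p = 0.00117, edgeR) and mt-Co1 (-0.27, SE 0.057, adjusted p = 0.00266, edgeR). These 6 calls held with each mouse left out in turn.

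The genes inside the nuclear copy diverged, with 3 lower, 2 higher and 1 not called. Mt-Nd4l, a membrane subunit of complex I, had 4.98, 5.35, 5.07 and 4.97 CPM in vehicle-treated and 6.71, 4.95, 6.24 and 4.91 CPM in evacetrapib-treated CETPtg mice. With vehicle the double transgenic mice had 9.93, 10.3, 9.72 and 13.3 CPM, and 9.93, 9.74, 11.3 and 7.89 CPM under evacetrapib. The genotypes did not overlap, and mt-Nd4l rose by 0.93 on the log2 scale (SE 0.096, adjusted p = 6.43e-06, edgeR), the smallest p among the 21 genes. The gene that shares its last 7 bases, mt-Nd4, fell. No tRNA gene lies between mt-Nd4l and mt-Nd4, and whether their RNA levels moved apart was not tested. The counts of mt-Nd4l depend on how reads shared with its copy were treated, which is not given. Mt-Atp8, a small subunit of the ATP synthase, had 5.40, 7.32, 7.44 and 5.36 CPM in vehicle-treated and 9.59, 7.26, 7.91 and 6.16 CPM in evacetrapib-treated CETPtg mice. With vehicle the APPtg/CETPtg mice had 4.13, 3.42, 3.13 and 2.82 CPM and with evacetrapib 2.68, 2.88, 3.96 and 4.73 CPM, again all on 1 side of the CETPtg mice. Its log2 fold change was -1.04 (SE 0.13, adjusted p = 3.81e-05, edgeR), the largest fall of the 21 genes. The counts behind it were 71 to 435 per mouse, and those behind mt-Nd4l 141 to 738.

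Mt-Co2, the complex IV subunit that accepts electrons from cytochrome c, fell by 0.32 on the log2 scale (SE 0.050, adjusted p = 0.000294, edgeR), from 43.6 ± 3.16 and 45.9 ± 2.38 CPM in vehicle- and evacetrapib-treated CETPtg mice to 36.4 ± 2.23 and 35.3 ± 3.42 CPM in APPtg/CETPtg mice (SD, n = 4). Mt-Atp6, the proton channel subunit of the ATP synthase, had 21.5, 26.8, 23.8 and 24.5 CPM in vehicle-treated and 26.8, 26.5, 30.1 and 26.5 CPM in evacetrapib-treated CETPtg mice. Its values in APPtg/CETPtg mice were 23.6, 19.1, 20.8 and 15.8 CPM with vehicle and 17.6, 18.3, 20.6 and 20.05 CPM with evacetrapib, so that the ranges overlapped at 21.5 and 23.6 CPM, and it fell by 0.41 (SE 0.071, adjusted p = 0.000743, edgeR). Mt-Nd3 rose by 0.40 (SE 0.092, adjusted p = 0.00531, edgeR). Mt-Co3, the remaining complex IV gene, was not called, at a log2 fold change of -0.14 (SE 0.059, adjusted p = 0.103, edgeR), but without mouse S3 it passed (adjusted p = 0.0484, edgeR).

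**Figure D3:**
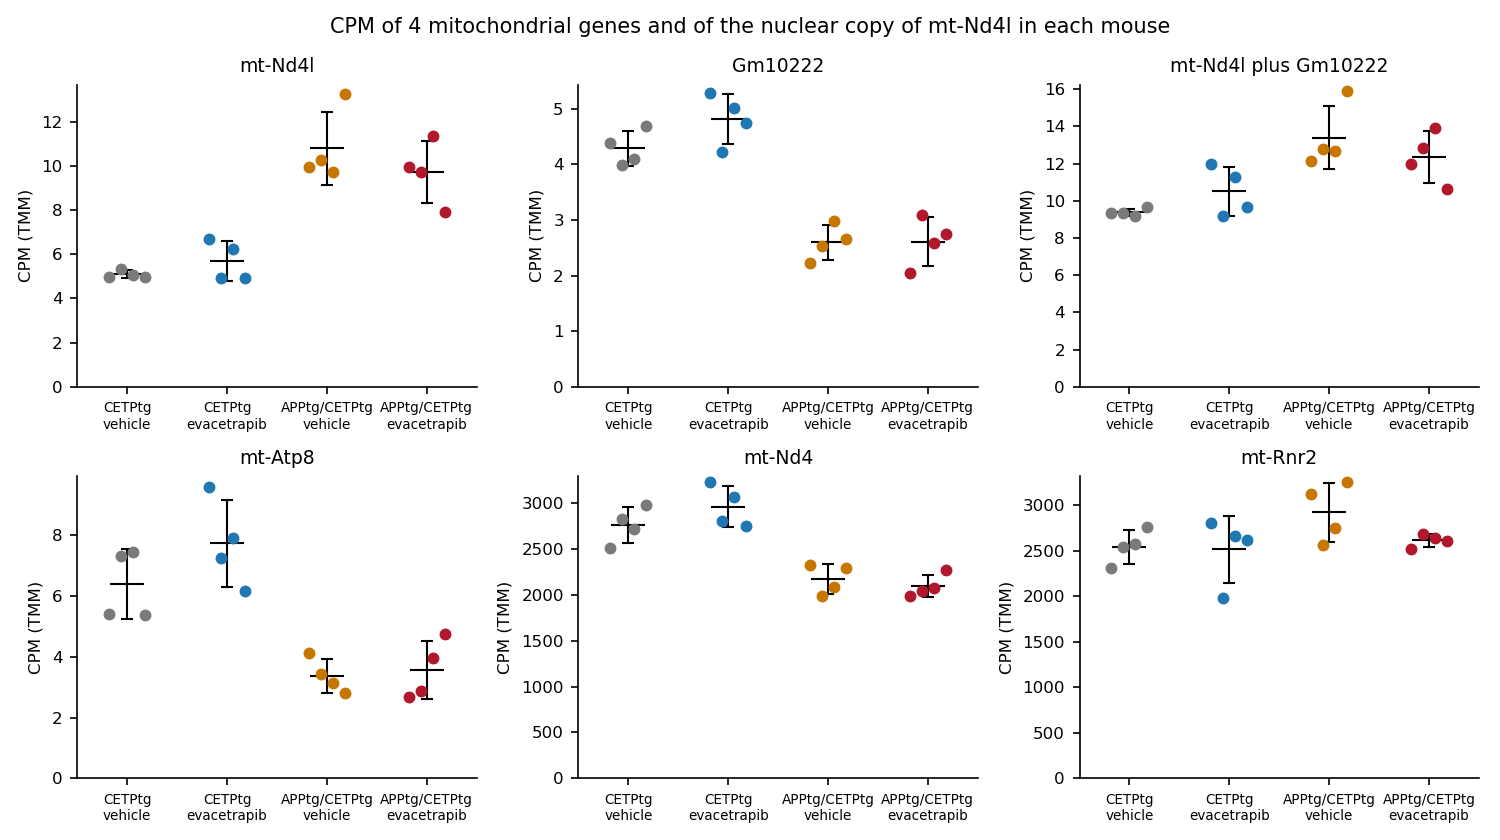
CPM of mt-Nd4l, its nuclear copy Gm10222, the sum of both, mt-Atp8, mt-Nd4 and mt-Rnr2 in each mouse by group, with the mean as a horizontal line and the SD as bars (n = 4). Mt-Nd4l lies between 4.91 and 6.71 CPM in CETPtg and between 7.89 and 13.3 CPM in APPtg/CETPtg mice, Gm10222 has the opposite order, and the sums overlap.

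The nuclear copy of mt-Nd4l moved the other way. Gm10222, identical to mt-Nd4l over 294 bases, had 4.38, 3.98, 4.10 and 4.69 CPM in vehicle-treated and 5.27, 4.23, 5.02 and 4.74 CPM in evacetrapib-treated CETPtg mice. The double transgenic mice were at 2.22, 2.52, 2.98 and 2.66 CPM with vehicle and 2.04, 3.09, 2.58 and 2.74 CPM with evacetrapib, a log2 fold change of -0.80 (SE 0.093, adjusted p = 1.98e-05, edgeR). Its share of the counts of the pair was 42.7 to 49.1% in CETPtg and 16.7 to 25.8% in APPtg/CETPtg mice, with no overlap. The sum of the pair was 9.17 to 11.98 CPM in CETPtg and 10.6 to 15.9 CPM in APPtg/CETPtg mice, so that the ranges overlapped, and its log2 fold change was 0.37 (SE 0.079, adjusted p = 0.00302, edgeR).

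The other copies differed less between genotypes than Gm10222. Gm28437 (copy of mt-Co3) fell, at -0.28 (adjusted p = 0.0047), and so did Gm28439 (part of mt-Nd4), at -0.27 (adjusted p = 0.0101). Gm29216, Gm28661, Gm10925 and Gm28438 were not called, with log2 fold changes of -0.07, -0.12, -0.06 and 0.23. With each member and its copy summed, 12 of the 21 genes were called (17.9% of all genes), and both rises inside the copy were smaller, at 0.37 for mt-Nd4l and 0.34 for mt-Nd3 (adjusted p = 0.0105). In that fit mt-Co3 passed the threshold, at -0.22 (adjusted p = 0.0122), and mt-Atp6 did not, at -0.20 (adjusted p = 0.0718, edgeR throughout). The sum was made after the values had been seen, and it adds no copy to mt-Atp8.

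The 2 rRNAs, which form the core of the mitochondrial ribosome, were not called. Mt-Rnr1 had 1353, 1381, 1383 and 1477 CPM in vehicle-treated and 1684, 1169.6, 1552 and 1623 CPM in evacetrapib-treated CETPtg mice. The APPtg/CETPtg values were 1753, 1452, 1542 and 1825 CPM with vehicle and 1355, 1488, 1440.3 and 1448 CPM with evacetrapib. Mt-Rnr2 had 2312, 2537, 2571 and 2761 CPM in vehicle-treated and 2807, 1981, 2663 and 2624 CPM in evacetrapib-treated CETPtg mice, and 3121, 2559.7, 2753 and 3259 CPM in vehicle-treated and 2522, 2688, 2638 and 2607 CPM in evacetrapib-treated APPtg/CETPtg mice. For both genes the genotypes overlapped, the evacetrapib-treated CETPtg mouse B was the lowest of the 16 and S8 the highest. The log2 fold changes were 0.08 (SE 0.071, adjusted p = 0.483, edgeR) for mt-Rnr1 and 0.13 (SE 0.065, adjusted p = 0.195, edgeR) for mt-Rnr2. An interval of 2 SE reached from -0.06 to 0.22 and from -0.0032 to 0.26, which lies above the values of the 6 plus-strand protein-coding genes that extend outside the copy.

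Mt-Nd6, which is read from the other strand and overlaps the end of mt-Nd5 by 14 bases, was not called between genotypes, at -0.22 (SE 0.079, adjusted p = 0.0577, edgeR). This value sits at the threshold, since it passed in 6 of 28 fits, among them DESeq2 (adjusted p = 0.0282) and those without mouse B (adjusted p = 0.0386, edgeR) or S5 (adjusted p = 0.00705, edgeR). Among the tRNAs, mt-Tp rose by 0.44 (SE 0.15, adjusted p = 0.0428, edgeR), from 1.27 ± 0.131 and 1.35 ± 0.300 CPM in CETPtg to 1.59 ± 0.395 and 1.96 ± 0.456 CPM in APPtg/CETPtg mice (vehicle and evacetrapib, SD, n = 4). It is the call that depended most on single mice, since it was kept in 4 of the 16 fits that left out 1 mouse (D, H, S5 or S6), where adjusted p in edgeR ran from 0.0164 to 0.0997. The other 5 tRNAs tested were not called, at -0.61 for mt-Ti, 0.40 for mt-Tq, -0.11 for mt-Tw, -0.12 for mt-Tt and -0.08 for mt-Tm. Without mouse S8, mt-Ti passed, at -1.07 (adjusted p = 0.00202, edgeR), and mt-Tp did not, with 12 of 21 genes called (14.8% of all genes).

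Ranges that did not overlap between the 8 CETPtg and the 8 APPtg/CETPtg mice were found for 5 of the 21 genes (mt-Nd4l, mt-Atp8, mt-Nd2, mt-Nd4 and mt-Nd5), against 3.03% of all genes. In the vehicle-treated mice alone 7 of the 21 genes were called (8.22% of all genes), 1 higher and 6 lower. In the evacetrapib-treated mice alone 10 were called (1.89% of all genes), again 1 higher and the rest lower. Mt-Nd4l was the gene that rose in both, at 1.10 with vehicle and 0.76 with evacetrapib. Mt-Atp8 was at -0.94 and -1.14, and mt-Nd4 at -0.34 and -0.51.

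Relative to the mitochondrial mRNAs themselves the picture was another. When libraries were scaled to the summed counts of the 13 protein-coding genes, the median over all genes became 0.32, 66.4% of all genes were called, and 8 of the 21 mitochondrial genes were called, 7 higher and 1 lower. Both rRNAs rose on this scale, mt-Rnr2 by 0.45 (SE 0.058, adjusted p = 2.03e-06, edgeR) and mt-Rnr1 by 0.40 (SE 0.062, adjusted p = 1.14e-05, edgeR). Mt-Nd4l rose by 1.25, mt-Nd3 by 0.71, mt-Tp by 0.75, mt-Tq by 0.71 and mt-Co3 by 0.17, and mt-Atp8 fell by 0.71 on the log2 scale. The other mRNAs lay between -0.11 (mt-Nd4) and 0.09 (mt-Nd6) and were not called, with mt-Co1 and mt-Cytb above 0. The 6 plus-strand mRNAs that extend outside the copy hold nearly all of the counts used for this scaling. Their values near 0 therefore follow from the scaling and are not a separate result. Both rRNAs lay above that median of 0.32, and the 6 plus-strand mRNAs that extend outside the copy lay below it. A change of scale shifts all genes by about the same amount, so this order is carried over from TMM.

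**Figure D4:**
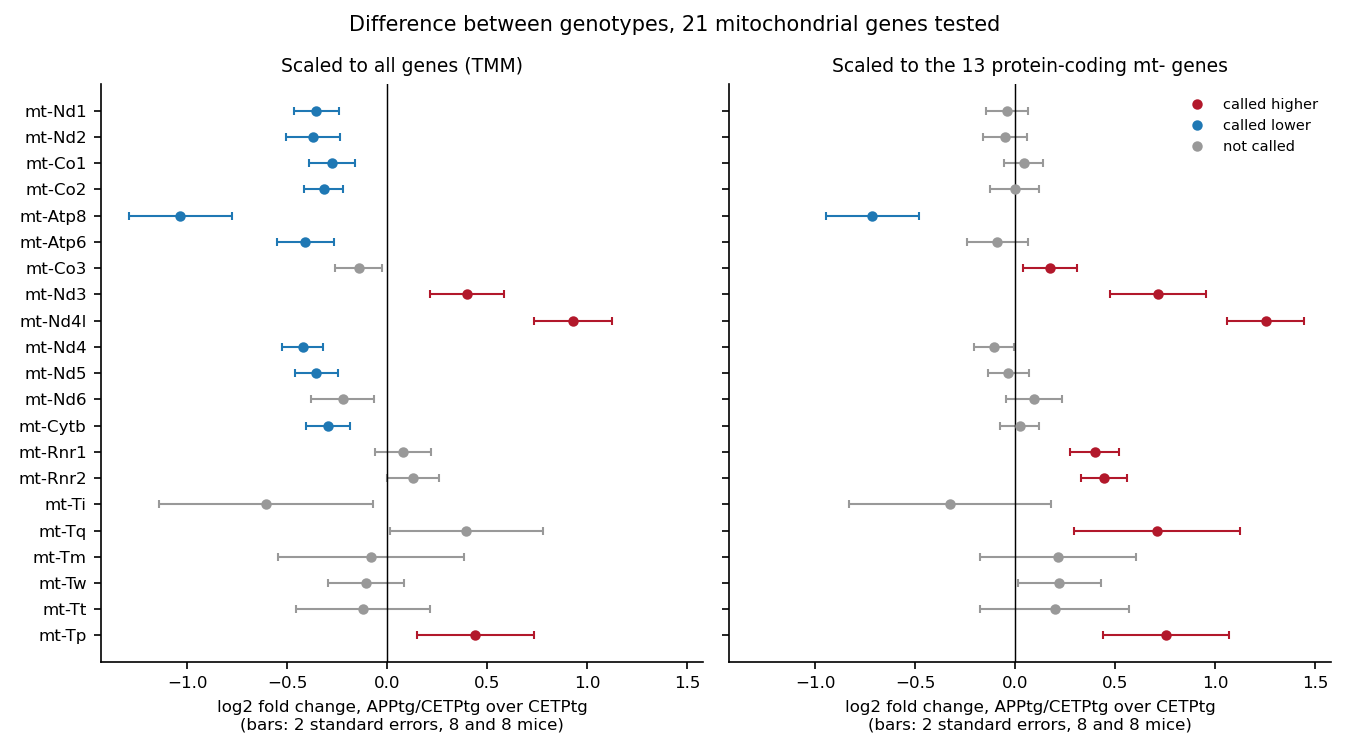
Log2 fold change of APPtg/CETPtg over CETPtg mice for the 21 genes tested (8 and 8 mice), with bars of 2 SE, scaled by TMM to all genes on the left and to the 13 protein-coding mitochondrial genes on the right. The rRNAs are at 0.08 and 0.13 on the left and at 0.40 and 0.45 on the right, while mt-Nd4l is called higher and mt-Atp8 lower in both.

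Nuclear genes that act on mitochondrial DNA and RNA were counted in 5 lists, beside 17.7% of all genes called between genotypes, and their counts are given as a description. Of 9 genes of mitochondrial transcription 1 rose, the termination family member Mterf4 (0.18, adjusted p = 0.0317), while the RNA polymerase Polrmt (0.08) and its elongation factor Tefm (0.15) were not called. Of 9 genes of replication and the nucleoid 1 rose, Atad3a (0.15, adjusted p = 0.00465), and the polymerase Polg (0.09) and the topoisomerase Top1mt (0.14) were not called. Of 21 genes of RNA processing and decay 4 rose and 0 fell, among them Slirp, which stabilises mitochondrial mRNAs (0.27, SE 0.046, adjusted p = 0.00066), Hsd17b10, a subunit of the ribonuclease that cuts tRNA 5′ ends (0.24, SE 0.053, adjusted p = 0.00354), and Ptcd2 (0.16, adjusted p = 0.0236). Of 19 aminoacyl-tRNA synthetases, which load the tRNAs, 3 rose and 0 fell, Tars2 (0.22, adjusted p = 0.00221), Cars2 (0.18, adjusted p = 0.0256) and Kars (0.11, adjusted p = 0.0324), the last of which also serves the cytosol. Of 8 biogenesis regulators 1 rose, Esrra (0.18, adjusted p = 0.0107), and 2 fell, the coactivator Ppargc1a (-0.17, adjusted p = 0.0277) and Gabpa (-0.16, adjusted p = 0.0431). Adjusted p values are from edgeR over all genes. List medians were -0.0064, 0.07, 0.01, 0.07 and -0.04 in this order, beside 0.0046 over all genes.

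Some markers of glia differed between genotypes, beside 8.38% of all genes lower and 9.35% higher, and the summed levels of the genotypes overlapped for each cell type. Of 8 oligodendrocyte markers 4 fell and 0 rose, and their summed level was 4348 to 5238 CPM in CETPtg and 3439 to 4702 CPM in APPtg/CETPtg mice. Of 8 astrocyte markers 3 fell and 1 rose (3303 to 3752 against 2705 to 3402 CPM), and of 8 microglia markers 4 rose and 0 fell (362 to 421 against 382 to 463 CPM). Of 10 neuron markers 1 rose and 0 fell (9057 to 10180 against 8950.0 to 10280 CPM). Their part in the differences of the mitochondrial genes was not tested.

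The comparison of evacetrapib- with vehicle-treated mice asked whether inhibiting CETP changed these transcripts. With evacetrapib 0 of the 21 genes were called over both genotypes (0.0107% of all genes), 0 in CETPtg mice (0% of all genes) and 0 in APPtg/CETPtg mice (0.043% of all genes), and the difference of the effect between genotypes was called for 0 (0% of all genes), all in edgeR. At an unadjusted p below 0.05 there were 2, 2, 2 and 1 of the 21 genes in this order. Among all 18609 genes there were 1472 over both genotypes, 1079 in CETPtg and 1677 in APPtg/CETPtg mice. The Wald test of DESeq2 also called 0 in each. Over both genotypes the median log2 fold change was 0.03 over the protein-coding, -0.07 over the rRNA and -0.23 over the tRNA genes, beside -0.0015 over all genes.

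Over both genotypes the smallest p belonged to mt-Nd6, mt-Co3 and mt-Ti. Mt-Nd6 had 33.5, 31.1, 34.3 and 33.3 CPM in vehicle-treated and 49.8, 34.1, 35.7 and 38.0 CPM in evacetrapib-treated CETPtg mice. The double transgenic mice had 37.3, 24.6, 25.8 and 29.9 CPM with vehicle and 31.5, 31.5, 34.2 and 33.2 CPM with evacetrapib. The treatments overlapped in both genotypes, mouse A at 49.8 CPM stood above the rest, and the log2 fold change was 0.20 (SE 0.079, adjusted p = 0.545, edgeR). Mt-Co3, which encodes a core subunit of complex IV, had 29.7, 26.6, 24.3 and 28.7 CPM in vehicle-treated and 34.3, 27.2, 33.9 and 30.3 CPM in evacetrapib-treated CETPtg mice. Its values in APPtg/CETPtg mice were 28.6, 22.6, 27.9 and 25.2 CPM with vehicle and 26.0, 27.1, 26.6 and 28.3 CPM with evacetrapib, and the log2 fold change of 0.13 was not called (SE 0.059, adjusted p = 0.61, edgeR). Mt-Ti had 1.35, 0.995, 1.08 and 0.846 CPM in vehicle-treated and 0.794, 0.600, 1.01 and 1.14 CPM in evacetrapib-treated CETPtg mice. With vehicle the APPtg/CETPtg mice had 0.363, 0.676, 0.400 and 1.62 CPM, where S8 was the mouse at 1.62, and with evacetrapib 0.604, 0.325, 0.461 and 0.371 CPM. The log2 fold change was -0.54 (SE 0.27, adjusted p = 0.649, edgeR).

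**Figure D5:**
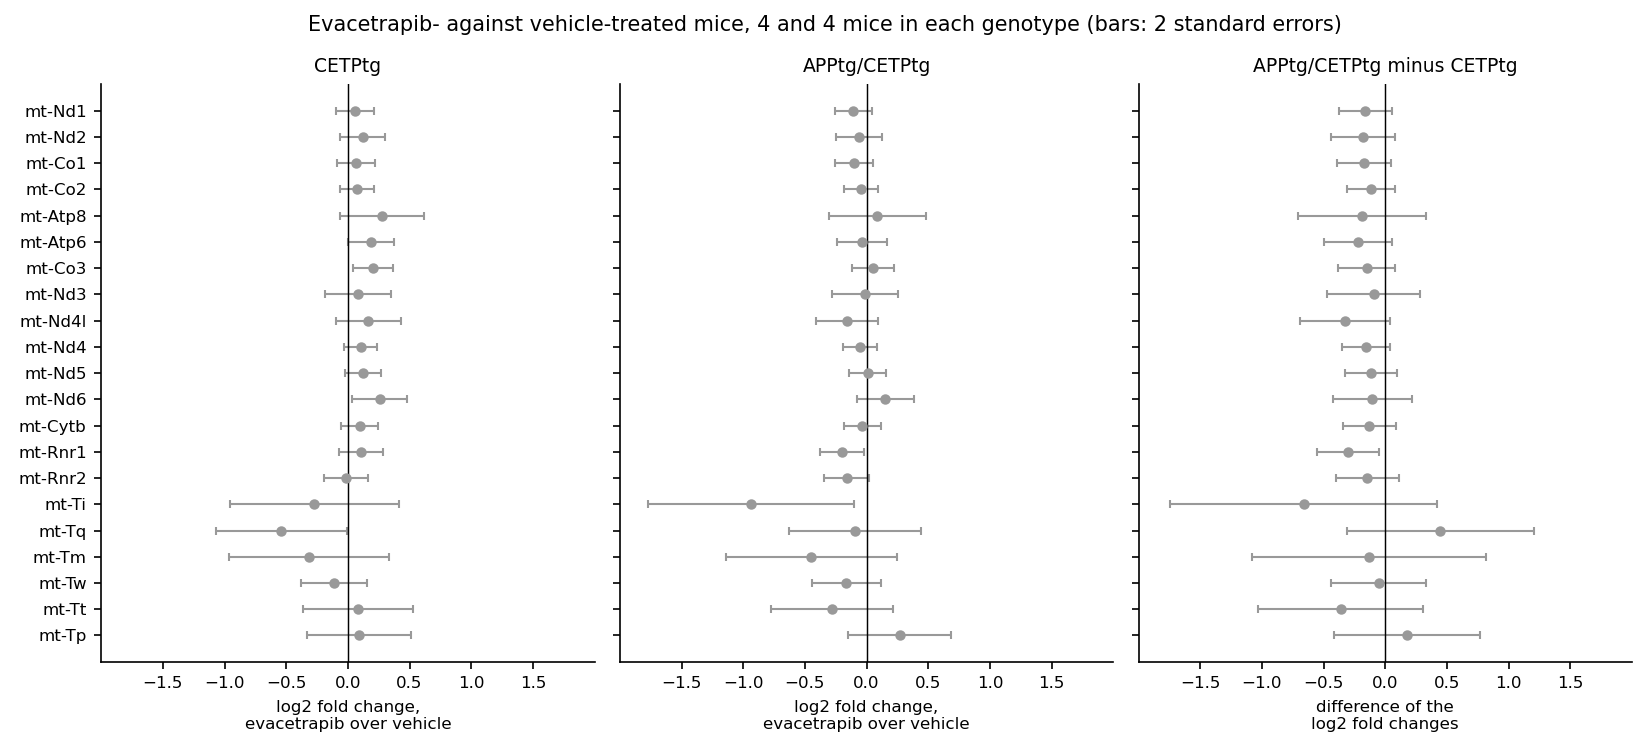
Log2 fold change of evacetrapib- over vehicle-treated mice (4 and 4) for the 21 genes within each genotype, and the APPtg/CETPtg value minus the CETPtg value, with bars of 2 SE. None is called; the 13 protein-coding genes lie between 0.06 and 0.28 in CETPtg and between -0.16 and 0.15 in APPtg/CETPtg mice.

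Within CETPtg mice all 13 protein-coding log2 fold changes were above 0, from 0.06 to 0.28, and within APPtg/CETPtg mice 4 were above and 9 below 0, from -0.16 to 0.15. Scaled to the mitochondrial mRNAs, the CETPtg values of these 13 genes went both ways, from -0.03 for mt-Nd1 to 0.18 for mt-Atp8. The smallest p in CETPtg mice were those of mt-Co3 (0.20, SE 0.081, adjusted p = 0.837, edgeR), mt-Nd6 (0.26, SE 0.11, adjusted p = 0.837, edgeR) and mt-Tq (-0.54, SE 0.27, adjusted p = 0.837, edgeR). Mt-Tq, the glutamine tRNA on the other strand, had 0.510, 0.645, 0.736 and 0.846 CPM in vehicle-treated and 0.485, 0.330, 0.398 and 0.653 CPM in evacetrapib-treated CETPtg mice, 11 to 28 counts each, so that the treatments overlapped. Double transgenic mice had 0.771, 0.721, 0.982 and 0.665 CPM with vehicle and 0.491, 0.609, 0.968 and 0.882 CPM with evacetrapib. In APPtg/CETPtg mice the smallest p were those of mt-Ti (-0.94, SE 0.42, adjusted p = 0.524, edgeR), mt-Rnr1 (-0.20, SE 0.089, adjusted p = 0.528, edgeR) and mt-Rnr2 (-0.16, SE 0.091, adjusted p = 0.629, edgeR). When each mouse was left out in turn, mt-Ti there ran from -1.14 to -0.10, the last without mouse S8.

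The difference between the genotypes' effects was below 0 for all 13 protein-coding genes and both rRNAs, from -0.33 to -0.09 for the former, and was not called for any. With libraries scaled to the mitochondrial mRNAs, a scale set by these same 13 genes, their signs went both ways. The values then ran from -0.15 for mt-Nd4l to 0.07 for mt-Nd6. The smallest p were those of mt-Rnr1 (-0.31, SE 0.13, adjusted p = 0.703, edgeR), mt-Nd4l (-0.33, SE 0.18, adjusted p = 0.74, edgeR) and mt-Atp6 (-0.22, SE 0.14, adjusted p = 0.763, edgeR). The intervals of 2 SE bounded the effect of evacetrapib over both genotypes for the 7 mRNAs that lie wholly or partly outside the copy. They were 0.05 to 0.36 for mt-Nd6, the 1 of these that did not include 0, -0.13 to 0.10 for mt-Co1, -0.08 to 0.14 for mt-Cytb, -0.14 to 0.09 for mt-Nd1, -0.11 to 0.16 for mt-Nd2, -0.08 to 0.13 for mt-Nd4 and -0.04 to 0.17 for mt-Nd5. For the tRNAs they were wider, as for mt-Tm at -0.84 to 0.09 and mt-Tp at -0.11 to 0.47. Those of mt-Ti, at -1.07 to -0.0038, and of mt-Co3 inside the copy, at 0.01 to 0.25, did not include 0 either. No gene of the lists of mitochondrial transcription, replication, RNA processing, tRNA charging and biogenesis was called with evacetrapib over both genotypes, with 0 of 9, 0 of 9, 0 of 21, 0 of 19 and 0 of 8.

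Spread between mice of a group limited what could be seen for each class. The pooled within-group coefficient of variation was 7.06% for mt-Co2 to 20.5% for mt-Atp8 among the protein-coding genes, 9.94 and 10.04% for the 2 rRNAs, and 12.9% for mt-Tw to 42.9% for mt-Ti among the 6 tRNAs tested.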

How the data were processed

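Poly(A) RNA of bulk brain was sequenced for 16 mice. The authors trimmed read pairs with Trimmomatic 0.39, aligned them to mm10 with STAR 2.7.8a and counted reads on genes with HTSeq. What they deposited are raw counts, not normalized. The annotation, strand setting and treatment of multiply mapped reads and of reads over neighbouring genes are not given in the sources used here. The 18609 genes that reached 10 counts in 4 or more mice were normalized by TMM and tested two-sided in edgeR 4.0.16 (R 4.3.3) by quasi-likelihood, with Benjamini-Hochberg adjustment over all of them. The treatment comparison had a genotype term and the genotype comparison a treatment term. The effects within genotypes and their difference came from a model with 4 group means. CPM used TMM library sizes. Every protein-coding and rRNA gene is named, as are the tRNAs. Values in every mouse are given for the rRNAs, mt-Nd6, the ends of the order per length and the 3 smallest p values of each comparison, and up to 3 genes per list are named by p. Members and gene lists were chosen with earlier results of these data known. The edgeR comparison of genotypes was tried on simulated counts with known changes. Copies were searched with BLAST against 141730 transcripts. Alternatives, among them DESeq2 1.42.0, are given in the closing section.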

Additional observations from a re-analysis of the deposited data

Results flagged for a closer look

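In each of 96 sets of 4 mice (the CPM of a tested gene, or the share of a class, in 1 group) the gap between the most extreme mouse and its nearest neighbour was divided by the range, and chance puts about 1 in 20 such sets past Dixon's 95% critical value. There were 5. The rRNA share of the evacetrapib-treated CETPtg mouse B was 0.312%, against 0.416 to 0.435% in the other mice of its group. The vehicle-treated APPtg/CETPtg mouse S8 had 13.3 CPM of mt-Nd4l, against 9.72 to 10.3 CPM. Mt-Atp6 was at 30.1 CPM in the evacetrapib-treated CETPtg mouse C, against 26.5 to 26.8 CPM. Mt-Co2 was at 38.9 CPM in the vehicle-treated CETPtg mouse S1, against 44.8 to 45.7 CPM. Mt-Tw was at 3.57 CPM in the evacetrapib-treated APPtg/CETPtg mouse H, against 4.93 to 5.20 CPM.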

How the results depend on the processing

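No paired analysis was possible because the labels give the groups no replicate numbers in common. In the 4 comparisons on evacetrapib, 0 members were called under every alternative, among them other library sizes, filters and thresholds, DESeq2 and each mouse left out, although the number of genes called over both genotypes was 2 and became 0 with scaling to the mitochondrial mRNAs, 1 without the genotype term, 35 without a filter, 59 with DESeq2 and 0 to 8 with 1 mouse left out. Within APPtg/CETPtg mice it was 8 and became 88 without a filter, 73 with DESeq2, 2 in a fit to those mice alone and 0 to 14 with 1 mouse left out. In CETPtg mice it went from 0 to 9 without a filter, and for the difference of the effects from 0 to 29 without a filter, 2 with DESeq2 and 1 without mouse S2. Between genotypes, 12 members were called, 11 to 13 with 1 mouse left out, and 8 to 13 under the other settings on all mice. In vehicle-treated mice alone there were 7, and the genes called numbered 1530 in them and 351 in evacetrapib-treated mice against 3299 in all. That fit rests on fewer mice. Scaling to the mitochondrial mRNAs turned 3 members, mt-Co1 to 0.0423, mt-Co3 to 0.17 and mt-Cytb to 0.0222, and called 12352 genes, 12322 of them higher. Mt-Co1 and mt-Cytb are themselves a large part of the counts used for that scaling. Raw library totals called 2099 genes higher and 1229 lower, against 1740 and 1559 with TMM. Of the other log2 fold changes of members between genotypes, 27 lost and 12 gained the call across alternatives, and 8 uncalled ones changed sign. For the comparisons on evacetrapib, 16, 12, 25 and 17 uncalled ones did, over both genotypes, in CETPtg, in APPtg/CETPtg and for their difference. Over the counts on other genes, the rRNA share of evacetrapib-treated APPtg/CETPtg mice was 0.421%, more than 1 SD above its share of all counts. The genotype fits to 1 treatment and the sums with copies were added after seeing the data. With 4 mice per group and few reads per gene, changes of the tRNAs below their spread were not detectable, and the genes inside the nuclear copy are limited by the unknown handling of shared reads.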
